A study of Mus musculus with 8 samples.

Results

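The fibroblast growth factor (FGF) genes described here were 10 genes taken by name, the ligands Fgf1, Fgf2, Fgf7, Fgf9, Fgf10 and Fgf18 and the receptors Fgfr1, Fgfr2, Fgfr3 and Fgfr4. They were 10 of the 37074 gene names on a mouse expression array, and 24 of its 56605 probes carried those names. The rule used gene names alone, though the genes were picked with earlier results of these data known. All 10 genes passed the filter on dim probes, and 21 of the 24 probes were well above background on all 8 arrays.

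The arrays profiled RNA from whole lungs, 1 array for each of 8 male mice aged 22 weeks that carried transplanted bone marrow and had been given diphtheria toxin 72 hours earlier. There were 4 groups of 2 mice. LL mice were LysM-DTR recipients of LysM-DTR marrow. WL mice were LysM-DTR recipients of wild-type marrow. LW mice were wild-type recipients of LysM-DTR marrow, and WW mice were wild-type recipients of wild-type marrow. LysM-DTR mice carry the diphtheria toxin receptor (DTR) under the promoter of lysozyme M, which is active in myeloid cells and also in alveolar type 2 cells, the surfactant-making epithelium of the lung. All 4 groups, WW included, were chimeras that had received toxin, so no comparison is made with a lung that had not. A recipient keeps its own epithelium, endothelium and connective tissue, and the labels do not say how completely its immune cells had been replaced. By its title the study looked for growth factors that promote repair, and for markers, of acute lung injury.

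FGF ligands bind receptor tyrosine kinases on the cell surface with heparan sulfate as a cofactor, and the receptors signal through adaptor proteins, RAS and the MAP kinases to transcription factors such as Etv4 and Etv5 and to feedback inhibitors such as the Sprouty proteins. In the lung, Fgf7 and Fgf10 are made by mesenchymal cells and act on a splice form of Fgfr2 in the epithelium. Fgf9 and Fgf18 direct growth of the developing lung, and Fgf1 and Fgf2 act on several cell types that include fibroblasts, endothelium and epithelium.

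Levels are given as the log2 of the processed fluorescence intensity minus the 75th percentile of the same array, so that 0 is the array's own 75th percentile and a difference of 1 is a doubling. They compare mice for 1 probe and do not rank genes against each other, because probes differ in brightness. In whole lung, fewer cells of a type and less RNA per cell cannot be told apart. The 75th percentile was 208.6 to 324.4 intensity units, and 66.3 to 72.3% of the spots other than controls passed the image software's test against background. The arrays were on 1 slide, where LL and WL held one column and LW and WW the other, so recipient genotype and slide column cannot be told apart. The WL mice differed more from each other (Pearson r = 0.96 over the genes tested) than the pairs of LL, LW and WW (0.99, 0.99 and 0.992), and results that rest on them are given with and without them.

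Each gene is represented by its brightest probe. The 60-base probes of Fgf2, Fgfr2 and Fgfr1 printed here lie in coding sequence and are shown because values of each are described below. They include the probes that represent Fgf2 (base 359) and Fgfr2 (base 3630) and not the one that represents Fgfr1. They are named by their first base in the array's annotated transcript, and positions are on mm9. The Fgf2 probe at base 359 aligns from chr3:37247934-37295153 on the plus strand, a span of 47220 bases that holds an intron, and the probe at base 481 lies at chr3:37303539-37303598. The Fgfr2 probes lie on the minus strand at chr7:137385966-137386025 (base 1466) and chr7:137307473-137307532 (base 3630). The Fgfr1 probe lies on the plus strand at chr8:26682852-26682911 (base 2655). Capitals mark the stop codon at the end of the Fgfr2 probe at base 3630 and the codons of the conserved DFG motif of the kinase domain in the Fgfr1 probe at base 2655.
Fgf2 base 359: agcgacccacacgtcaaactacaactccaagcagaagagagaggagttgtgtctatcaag
Fgf2 base 481: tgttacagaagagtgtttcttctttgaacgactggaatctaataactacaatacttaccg
Fgfr2 base 1466: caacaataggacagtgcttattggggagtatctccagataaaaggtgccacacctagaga
Fgfr2 base 3630: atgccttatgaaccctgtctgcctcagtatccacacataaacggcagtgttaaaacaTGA
Fgfr1 base 2655: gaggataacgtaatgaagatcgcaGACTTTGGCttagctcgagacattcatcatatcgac

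The 10 FGF genes split evenly in direction in LL lungs, where both marrow and recipient carried the toxin receptor. By the brightest probe of each gene, Fgf2 had the largest difference, 2.24-fold higher in LL than in WW lungs (Fgfr4 was larger in size under normexp background correction and with a gene's probes averaged), and Fgf1, Fgf7, Fgf10, Fgfr2 and Fgfr4 had lower means in LL. With the spread estimated over all 8 arrays, none of the 10 genes passed an adjusted p of 0.05 in LL against WW in limma, where 3.13% of all 25830 genes tested did. The median of the 10 log2 differences was -0.03, beside 0.03 over all genes, and 5 of the 10 were above 0. Only Fgfr3 had an unadjusted p under 0.05, a mark that 24.8% of all genes reached. In 9 of the 10 genes, all but Fgf18, the LL and WW mice did not overlap, while 69.5% of all genes tested also did not overlap. LL was the higher in 4 of them (37% of all genes) and the lower in 5 (32.4%). Against LW the mice did not overlap in 8 of the 10 (71.9% of all genes), with LL higher in 3 (40.3%) and lower in 5 (31.6%).

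The fit on 8 arrays takes its estimate of the spread from all 4 pairs, the WL pair included. Without both WL arrays, 2 of the 10 FGF genes passed in LL against WW, Fgf2 higher and Fgfr2 lower, beside 32.1% of all genes (17.3% higher and 14.8% lower). In LL against LW, which differ in the recipient under the same LysM-DTR marrow, 4 of the 10 passed, Fgf2 and Fgfr3 higher and Fgf7 and Fgfr2 lower, beside 32.8% of all genes (18.5% higher and 14.4% lower). On all 8 arrays none passed in LL against LW, beside 2.8% of all genes, and Fgfr3 alone had an unadjusted p under 0.05, beside 25.7%. At an unadjusted p under 0.05, 5 of the 10 passed without both WL arrays in LL against WW (44.9% of all genes) and 5 in LL against LW (45.6%). These shares of calls are near those of all genes. With only the 4 arrays of the groups compared in the fit, 2 were called in LL against WW (Fgf2 and Fgf10, beside 24.2% of all genes) and 1 in LL against LW (Fgf2, beside 27.6%).

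**Figure D1:**
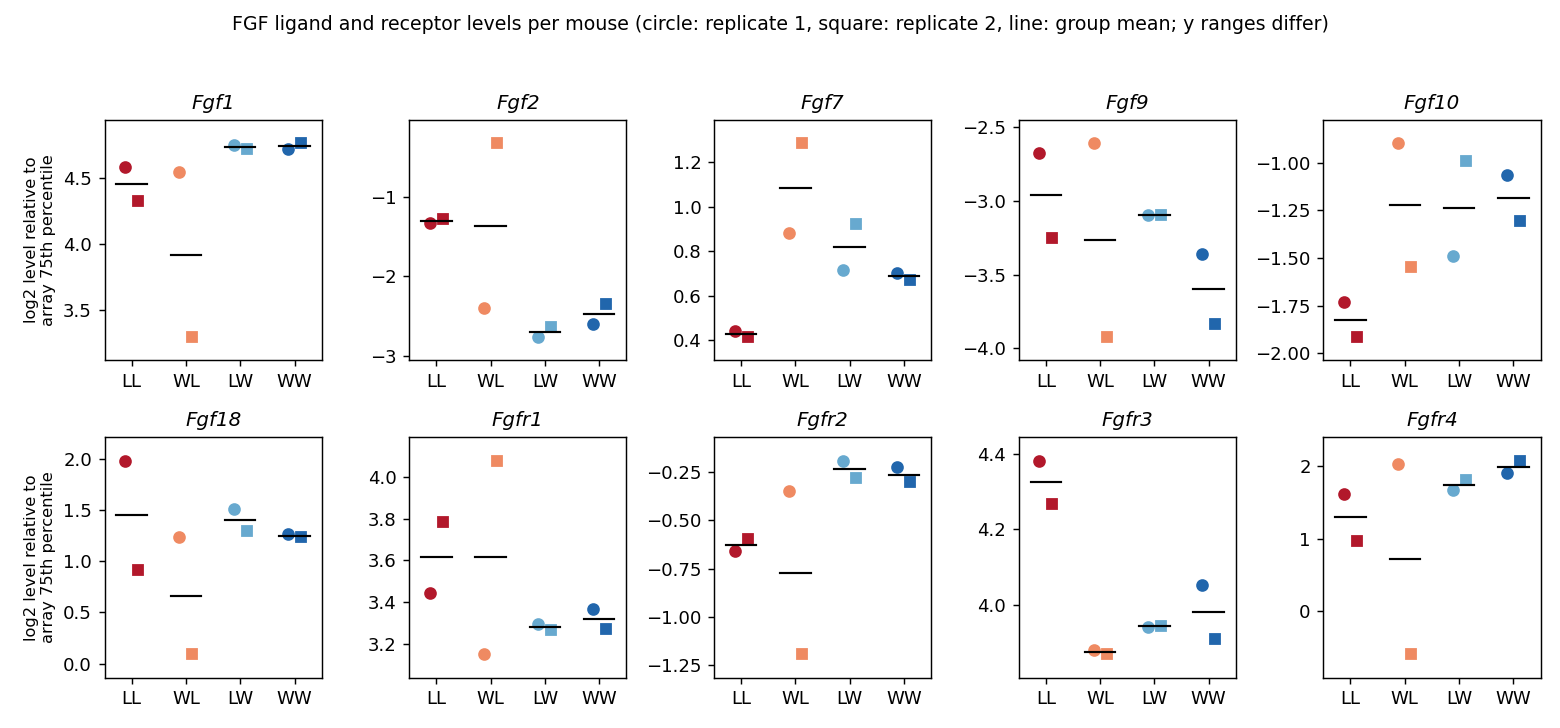
Log2 level relative to the array 75th percentile (y axis, ranges differ between panels) of the 10 FGF genes in each mouse of LL, WL, LW and WW, with a circle for replicate 1, a square for replicate 2 and a line for the mean of the 2 mice. The LL mice of Fgf2 sit at -1.34 and -1.28, above both LW and both WW mice. The WL mice stand far apart in Fgf1, Fgf2, Fgf9, Fgf18 and Fgfr4.

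Fgf2 encodes basic FGF, a mitogen of fibroblasts and endothelial cells that is stored in the extracellular matrix. Its log2 level was -1.34 and -1.28 in LL mice, -2.40 and -0.33 in WL mice, -2.77 and -2.63 in LW mice, and -2.60 and -2.35 in WW mice. Both LL mice and WL replicate 2 lay above all 4 mice with a wild-type recipient, whereas WL replicate 1 lay between the WW mice. LL exceeded WW by 1.16 (SE 0.607, limma adjusted p = 0.275) on all 8 arrays and by the same amount with an SE of 0.123 (adjusted p = 0.00421) without both WL arrays. LL exceeded LW by 1.39, a fold of 2.62, with an adjusted p of 0.211 on 8 arrays and 0.00312 without both WL arrays in limma. Averaged over donors, LysM-DTR recipients exceeded wild-type recipients by 1.25 (SE 0.429, limma adjusted p = 0.129). Fgf2 was the 1 FGF gene of 10 with an unadjusted p under 0.05 in that average (0.026), a mark that 31.2% of all genes reached, and 1.27% of all genes were called after adjustment. The average was 1.77 without WL replicate 1 and 0.73 without WL replicate 2, each with 1 WL mouse left. With another background correction, normexp, it was 0.64 and the LL minus WW difference of Fgf2 was 0.55. The second Fgf2 probe, at base 481, had a log2 level of -2.45 and -1.80 in LL mice, -2.97 and -0.08 in WL mice, -2.93 and -2.70 in LW mice, and -2.80 and -2.91 in WW mice. Its LL mice were again above all LW and WW mice, by 0.73 against WW and 0.69 against LW, and neither difference was called in the fit over probes, with limma adjusted p of 0.601 and 0.614 on 8 arrays and 0.07 and 0.0782 without both WL arrays.

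Of the markers measured in the same lungs, those of mesothelium had a mean log2 level of 2.52 and 2.12 in LL mice, 1.19 and 1.01 in WL mice, 1.33 and 0.99 in LW mice, and 1.09 and 1.04 in WW mice. Of these 4 markers 1 passed in LL against WW in limma, with LL higher. The 6 markers of dividing cells averaged 1.13 and 1.13 in LL mice, 0.59 and 1.26 in WL mice, -0.53 and -0.86 in LW mice, and -0.77 and -0.64 in WW mice. All 6 of them passed in LL against WW, with LL higher. Over all genes 3.13% passed in that comparison. The 10 fibroblast markers averaged 3.23 and 2.98 in LL mice, 3.14 and 2.70 in WL mice, 2.95 and 3.07 in LW mice, and 2.96 and 2.80 in WW mice, so LL and LW overlapped and WL replicate 2 was the lowest. In limma none of the 10 fibroblast markers passed in LL against WW on 8 arrays, where their differences ran from -0.76 to 1.28. Without both WL arrays 5 of them were called higher and none lower, beside 17.3% and 14.8% of all genes. In that fit 3 of the 4 mesothelium markers and all 6 of dividing cells were called higher. The part of these cells in the Fgf2 level was not tested.

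Fgf7, or keratinocyte growth factor, had a log2 level of 0.44 and 0.41 in LL mice, 0.88 and 1.29 in WL mice, 0.71 and 0.92 in LW mice, and 0.70 and 0.67 in WW mice. Both LL mice were below the other 6 mice, and WL and LW overlapped. LL was lower than LW by a log2 difference of -0.39, which passed without both WL arrays (limma adjusted p = 0.0463) and not with them (0.224). In the fit over probes without both WL arrays it was not called (limma adjusted p = 0.0529). Against WW the difference was -0.26, and the limma adjusted p was 0.386 on 8 arrays and 0.127 without both WL arrays.

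Fgf10, the other mesenchymal ligand of epithelial Fgfr2, had a log2 level of -1.73 and -1.92 in LL mice, -0.90 and -1.55 in WL mice, -1.49 and -0.99 in LW mice, and -1.06 and -1.31 in WW mice. Both LL mice were again below the other 6 mice. The difference of LL from WW was -0.64 (SE 0.278, 95% interval -1.31 to 0.04, limma adjusted p = 0.216), and without both WL arrays the adjusted p was 0.0677. A second Fgf10 probe, at base 1122, did not share this: its LL minus WW difference was 0.02 and the groups overlapped.

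Fgf1, acidic FGF, had a log2 level of 4.58 and 4.33 in LL mice, 4.54 and 3.29 in WL mice, 4.75 and 4.72 in LW mice, and 4.72 and 4.76 in WW mice. WL replicate 2 differed from the WW mean by -1.45, and the LL mice lay just below all LW and WW mice. The LL minus WW difference was -0.29 (limma adjusted p = 0.649 on 8 arrays and 0.12 without both WL arrays). Leaving out LL replicate 1 gave -0.42, leaving out LL replicate 2 gave -0.16, and quantile normalization gave -0.53. The other Fgf1 probes, at bases 222 and 1572, gave -0.08 and -0.10 with overlapping LL and WW mice.

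For Fgf9 and Fgf18, known from lung development, the 2 mice of LL and of WL lay far apart. For Fgf9 the WW mice were nearly as far apart as the LL mice. The Fgf9 probe was dim, at 1.68 to 2.70 times its local background. Fgf9 had a log2 level of -2.67 and -3.25 in LL mice, -2.61 and -3.92 in WL mice, -3.09 and -3.10 in LW mice, and -3.36 and -3.83 in WW mice. Both LL mice were above both WW mice and overlapped the LW mice, and the LL minus WW difference was 0.63 (SE 0.446, limma adjusted p = 0.394). It was 0.34 without LL replicate 1, 0.40 without WW replicate 2 and 0.16 under normexp. Fgf18 had a log2 level of 1.98 and 0.92 in LL mice, 1.24 and 0.09 in WL mice, 1.51 and 1.30 in LW mice, and 1.26 and 1.24 in WW mice. The LL mice lay on either side of the WW mice, and leaving out LL replicate 1 turned the LL minus WW difference of 0.20 to -0.33.

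**Figure D2:**
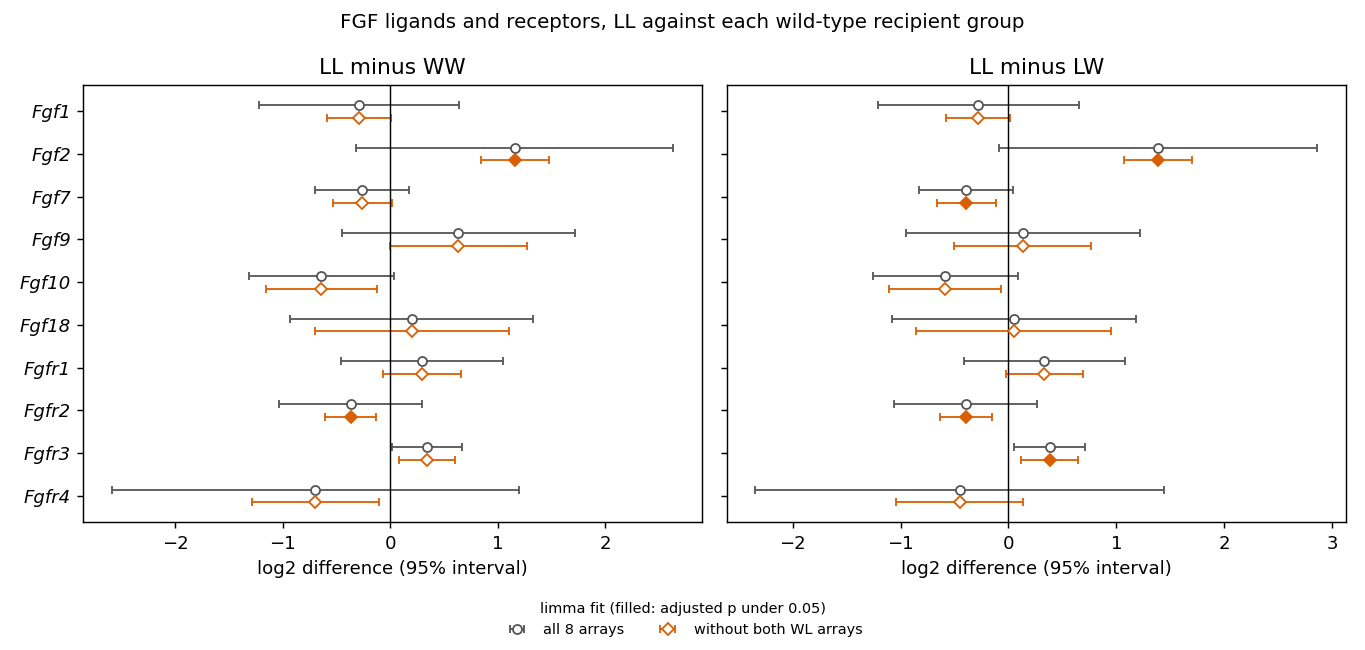
Log2 differences of LL minus WW (left) and LL minus LW (right) for the 10 FGF genes with 95% intervals from limma, fitted to all 8 arrays (grey circles) and without both WL arrays (orange diamonds), filled where the adjusted p was under 0.05. No grey symbol is filled, and Fgf2 and Fgfr2 are filled in orange in both panels.

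Fgfr2 encodes the receptor whose epithelial splice form binds Fgf7 and Fgf10, and its levels here are not resolved by splice form. Its log2 level was -0.66 and -0.60 in LL mice, -0.35 and -1.19 in WL mice, -0.19 and -0.28 in LW mice, and -0.22 and -0.30 in WW mice. All 4 mice with a LysM-DTR recipient were below all 4 with a wild-type recipient, WL replicate 1 by the smallest margin. The difference of LL from WW was -0.37 (SE 0.272, limma adjusted p = 0.416 on 8 arrays). Without both WL arrays it was called (SE 0.0936, adjusted p = 0.0386), as was the difference of -0.40 from LW (adjusted p = 0.0311). The probe at base 1466 gave -0.43 against WW. At that probe WL replicate 1 (-3.471) lay just above WW replicate 1 (-3.475), so the recipients overlapped there. In the limma fit over probes without both WL arrays both Fgfr2 probes passed (adjusted p = 0.0497 at base 1466 and 0.0464 at base 3630), as did 30.4% of all probes.

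The alveolar type 2 markers, surfactant genes among them, had a mean log2 level of 4.97 and 5.16 in LL mice, 6.33 and 4.83 in WL mice, 6.47 and 6.23 in LW mice, and 6.42 and 6.43 in WW mice. The mice with the lower Fgfr2 levels, both LL mice and WL replicate 2, were also those with the lower type 2 markers. The alveolar type 1 markers averaged 6.01 and 5.89 in LL mice, 5.24 and 4.49 in WL mice, 5.38 and 5.34 in LW mice, and 5.53 and 5.42 in WW mice. Whether these cells account for the receptor levels was not tested.

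Fgfr4 had a log2 level of 1.62 and 0.98 in LL mice, 2.03 and -0.59 in WL mice, 1.68 and 1.82 in LW mice, and 1.90 and 2.08 in WW mice. The difference from the WW mean was -2.59 in WL replicate 2 and 0.04 in WL replicate 1, so the group mean of WL describes neither mouse. The LL minus WW difference was -0.69 (SE 0.78, limma adjusted p = 0.588 on 8 arrays and 0.0753 without both WL arrays). With LL replicate 1 left out the difference grew to -1.01, and with LL replicate 2 left out it shrank to -0.37. The probe at base 3002, next to the one at base 3058 that represents the gene, gave 0.23 and -1.13 in LL mice, 1.64 and -1.83 in WL mice, 1.28 and 1.41 in LW mice, and 1.48 and 1.46 in WW mice. There the LL minus WW difference was -1.91. In the limma fit over probes it was called without both WL arrays (adjusted p = 0.0281), as were 30.4% of all probes. On 8 arrays it was not called (0.298), and 2.79% of all probes passed. The probe at base 237 gave -0.33, so the 3 Fgfr4 probes shared a sign and differed in size.

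Fgfr1, the receptor of mesenchymal and endothelial cells, had a log2 level of 3.45 and 3.79 in LL mice, 3.15 and 4.08 in WL mice, 3.30 and 3.27 in LW mice, and 3.37 and 3.27 in WW mice. Both LL mice were above all LW and WW mice, and WL spanned the whole range. The LL minus WW difference was 0.30 (SE 0.309, limma adjusted p = 0.558). The value depended on the LL mouse: LL replicate 2 alone gave 0.47 and LL replicate 1 alone 0.13, and quantile normalization gave 0.12. All 4 Fgfr1 probes were higher in LL, by 0.22 to 0.72, and the probe at base 2655, which holds the DFG codons, gave 0.47.

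Fgfr3 had a log2 level of 4.38 and 4.27 in LL mice, 3.88 and 3.87 in WL mice, 3.94 and 3.95 in LW mice, and 4.05 and 3.91 in WW mice. The LL mice were above the other 6 mice, and for this receptor the WL mice lay close together. LL exceeded WW by 0.34 (SE 0.134, 95% interval 0.02 to 0.67, limma adjusted p = 0.188) and LW by 0.38 (adjusted p = 0.159). Without both WL arrays the difference from LW was called (limma adjusted p = 0.043) and that from WW was not (0.058), and in the fit over probes the difference from LW was not called either (0.0502). The second detected Fgfr3 probe, at base 2558, gave 0.25 against WW, with overlapping groups. Quantile normalization brought the LL minus WW difference of Fgfr3 to 0.13.

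**Figure D3:**
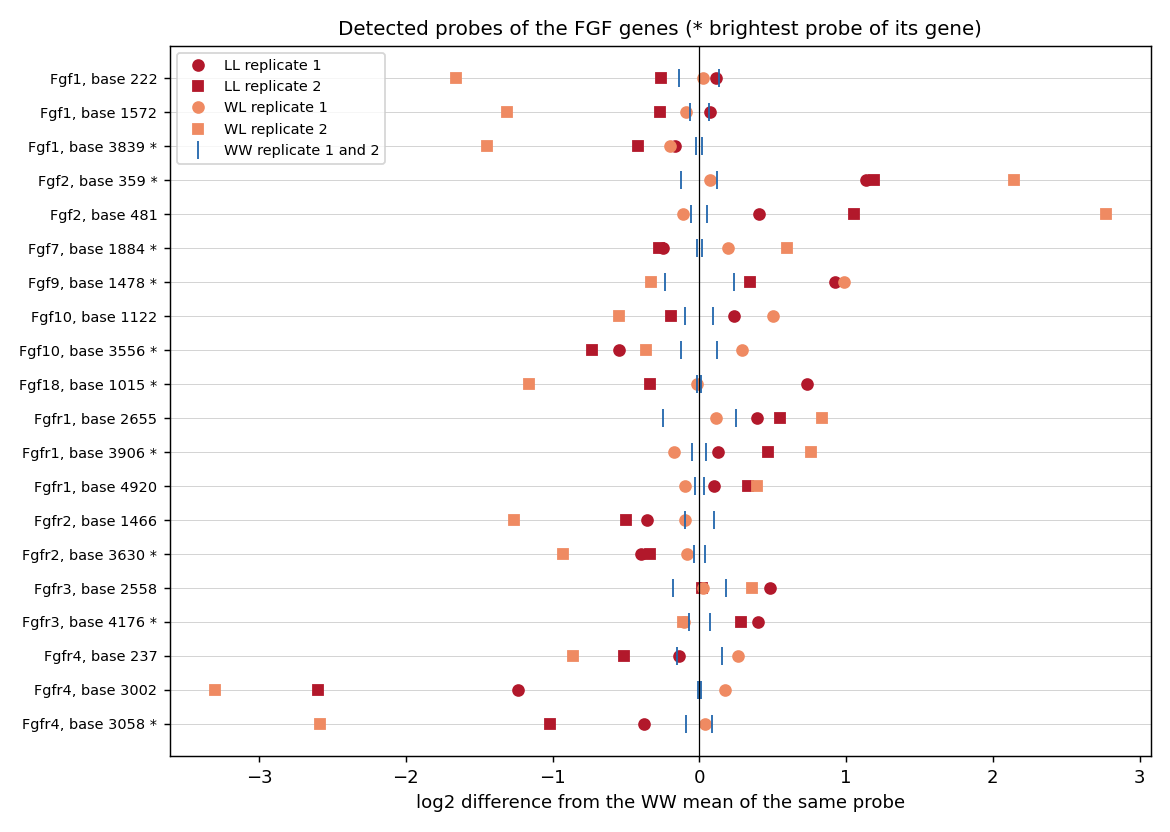
Difference of each mouse from the WW mean of the same probe (x axis, log2) for 20 of the 21 FGF probes detected on all arrays (y axis, named by gene and first base), with LL in red, WL in orange, WW as blue ticks, circles for replicate 1 and squares for replicate 2. WL replicate 2 is the point farthest from 0 for every probe of Fgf1, Fgf2, Fgfr2 and Fgfr4, and the 3 Fgfr1 probes have both LL mice right of both WW ticks.

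The toxin receptor in the recipient alone (WL against WW) and in the marrow alone (LW against WW) gave no called FGF gene in limma. In WL against WW none of the 10 had an unadjusted p under 0.05 either, beside 8.18% of all genes, and 0.00387% of all genes were called. In LW against WW none had an unadjusted p under 0.05, beside 2.2% of all genes, and 0.0542% were called. Without both WL arrays none of the 10 passed in LW against WW either, at an adjusted p (0.00774% of all genes) or an unadjusted p (4.47%) under 0.05. The WL and WW mice did not overlap in 5 of the 10 genes (42% of all genes), with WL higher in 1 (17.5%) and lower in 4 (24.5%). The LW and WW mice did not overlap in 5 (33.9%), with LW higher in 3 (13.8%) and lower in 2 (20.1%).

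The WL mean hid a difference between its 2 mice, in the FGF genes as over all genes. The median size of the 10 differences from the WW mean was 0.847 in WL replicate 2, 0.136 in WL replicate 1, 0.399 and 0.381 in LL mice, and 0.164 and 0.107 in LW mice. Over all genes those medians were 0.477, 0.133, 0.335, 0.376, 0.114 and 0.111, in the same order of mice. WL replicate 2 was farther from WW than the LL mean in 7 of the 10 genes, and on the same side of WW in 6. These counts were not made over all genes. In that mouse 7 of the 10 FGF genes and 48.2% of all genes lay more than 0.5 from the WW mean. The difference of WL replicate 2 from the WW mean was 2.14 for Fgf2, 0.76 for Fgfr1 and -0.93 for Fgfr2, the directions that LL had. It was 0.60 for Fgf7, -0.33 for Fgf9, -1.16 for Fgf18 and -0.11 for Fgfr3. The LL means had the opposite signs there, -0.26, 0.63, 0.20 and 0.34. For Fgf18, LL replicate 2 was itself below both WW mice. WL replicate 1 was at most 0.29 from the WW mean in the FGF genes other than Fgf9, which it had 0.99 above. Leaving out 1 WL mouse at a time changed the calls. Without WL replicate 1, 6 FGF genes were called in WL against WW (Fgf1, Fgf2, Fgf7, Fgfr1, Fgfr2 and Fgfr4, beside 37.7% of all genes) and 5 in the average over recipients (those but Fgf7, beside 48.4%). Without WL replicate 2, Fgf2 was the 1 FGF gene called in the average over recipients (beside 13.3% of all genes) and in the interaction described next (beside 8.55%). In these fits the lone WL mouse is assumed to vary like the other groups. The alveolar type 2 markers also set the WL mice apart, at 6.33 in WL replicate 1 and 4.83 in WL replicate 2. So did the alveolar macrophage markers, at 2.54 and 1.05 in the WL mice in the order of their numbers. The neutrophil markers were at 1.31 and 3.33 in the WL mice, but replicate 1 was the lower in every group. They averaged 1.56 and 2.92 in LL mice, 1.74 and 2.72 in LW mice, and 2.23 and 3.14 in WW mice. The monocyte and macrophage markers averaged 2.98 and 3.05 in the WL mice and -0.86 and -0.57 in LL mice, against 2.62 and 2.26 in LW mice and 2.71 and 2.74 in WW mice.

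Whether the recipient's toxin receptor acted differently under the 2 kinds of marrow was tested as the interaction, LL minus WL minus LW plus WW, and none of the 10 genes was called, beside 0.0619% of all genes. Fgf7 and Fgfr3 had unadjusted p under 0.05, beside 9.14% of all genes. For Fgf7 the LL mice were below both LW mice and the WL mice were above both WW mice, and the interaction was -0.79 (SE 0.253, limma adjusted p = 0.402). For Fgfr3 the LL mice were above both LW mice and the WL mice were below both WW mice, and the interaction was 0.49 (SE 0.189, limma adjusted p = 0.519). The Fgfr3 probe at base 2558 did not share the WL part of this. Its WL mice were 0.03 and 0.36 above the WW mean.

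Other genes of the pathway were followed as 4 lists, of which Ext2 and Fgfbp3 passed in LL against WW. Ext2, a polymerase of heparan sulfate, had a log2 level of -2.44 and -2.52 in LL mice, -3.74 and -3.48 in WL mice, -3.41 and -3.17 in LW mice, and -3.61 and -3.44 in WW mice. It rose in LL by 1.04 against WW (SE 0.167, limma adjusted p = 0.0353), with both LL mice above the other 6. On 8 arrays Ext2 was not called in LL against LW or in the average over recipients. Fgfbp3, a secreted protein that binds FGFs, had a log2 level of -1.33 and -1.43 in LL mice, -1.40 and -1.67 in WL mice, -0.44 and -0.57 in LW mice, and -0.48 and -0.55 in WW mice. All 4 mice with a LysM-DTR recipient were below all 4 with a wild-type recipient, the WL mice included. Fgfbp3 fell by 0.87 in LL against WW (limma adjusted p = 0.0438), by 0.88 against LW (0.0459) and by 0.95 in the average over recipients (0.0268). Leaving out any 1 array of LL, LW or WW ended all these calls, with limma adjusted p of 0.0825 to 0.215 for Ext2 and, for Fgfbp3, 0.108 to 0.244 against WW, 0.106 to 0.241 against LW and 0.0981 to 0.138 in the average. So did leaving out the filter on dim probes (limma adjusted p = 0.0562 to 0.0929), and normexp lowered Ext2 to 0.31 and ended its call (0.173). These were 1 higher and 1 lower of the 17 co-receptor, FGF-binding and heparan sulfate genes measured (of 19 on the list). Of all genes 3.13% were called in LL against WW on 8 arrays. The median LL minus WW difference of the 17 was 0.44, beside 0.03 over all genes. Of the 17, 8 were called higher and 4 lower without both WL arrays, beside 17.3% and 14.8% of all genes.

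Of the 13 feedback and response genes none passed in LL against WW on 8 arrays in limma, and their median difference was 0.10. Etv5, a transcription factor induced by FGF signalling that is also made by alveolar type 2 cells, had a log2 level of 2.30 and 2.32 in LL mice, 4.56 and 2.21 in WL mice, 4.84 and 4.76 in LW mice, and 4.84 and 4.86 in WW mice. Both LL mice and WL replicate 2 were low, and the other 5 mice were high. The LL minus WW difference was -2.54, with a limma adjusted p of 0.104 on 8 arrays and 0.00164 without both WL arrays. Its relative Etv4 went the other way, with -0.26 and -0.19 in LL mice, -1.30 and 0.06 in WL mice, -1.85 and -1.70 in LW mice, and -1.63 and -1.42 in WW mice. The Etv4 difference of LL from WW was 1.30 (limma adjusted p = 0.139 on 8 arrays and 0.00335 without both WL arrays). Of the 13, 3 were called higher and 3 lower without both WL arrays, beside the same 17.3% and 14.8%.

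None of the 19 signal transduction genes passed in LL against WW on 8 arrays in limma, with a median difference of -0.02, and without both WL arrays 6 were called higher and 2 lower (17.3% and 14.8% of all genes). Sos1, an exchange factor that activates RAS, had an LL minus WW difference of -0.60 (limma adjusted p = 0.0825 on 8 arrays). Among the alternative fits the Sos1 difference ran from -0.64 to -0.49, and its lowest limma adjusted p was 0.00905. Of the 16 other FGF genes 9 were measured and none passed on 8 arrays in limma. Without both WL arrays 1 of the 9 was called lower in LL against WW and none higher (14.8% and 17.3% of all genes). The 2 with the smallest p in LL against WW on 8 arrays were Fgf11, with a difference of -0.93 (adjusted p = 0.222), and Fgf8, with 0.32 (0.348). The lowest limma adjusted p of Fgf11 among the alternative fits was 0.032. Fgf4, Fgf5, Fgf15, Fgf16, Fgf20, Fgf21 and Fgf22 and the co-receptors Kl and Klb had probes that did not pass the filter on dim probes.

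**Figure D4:**
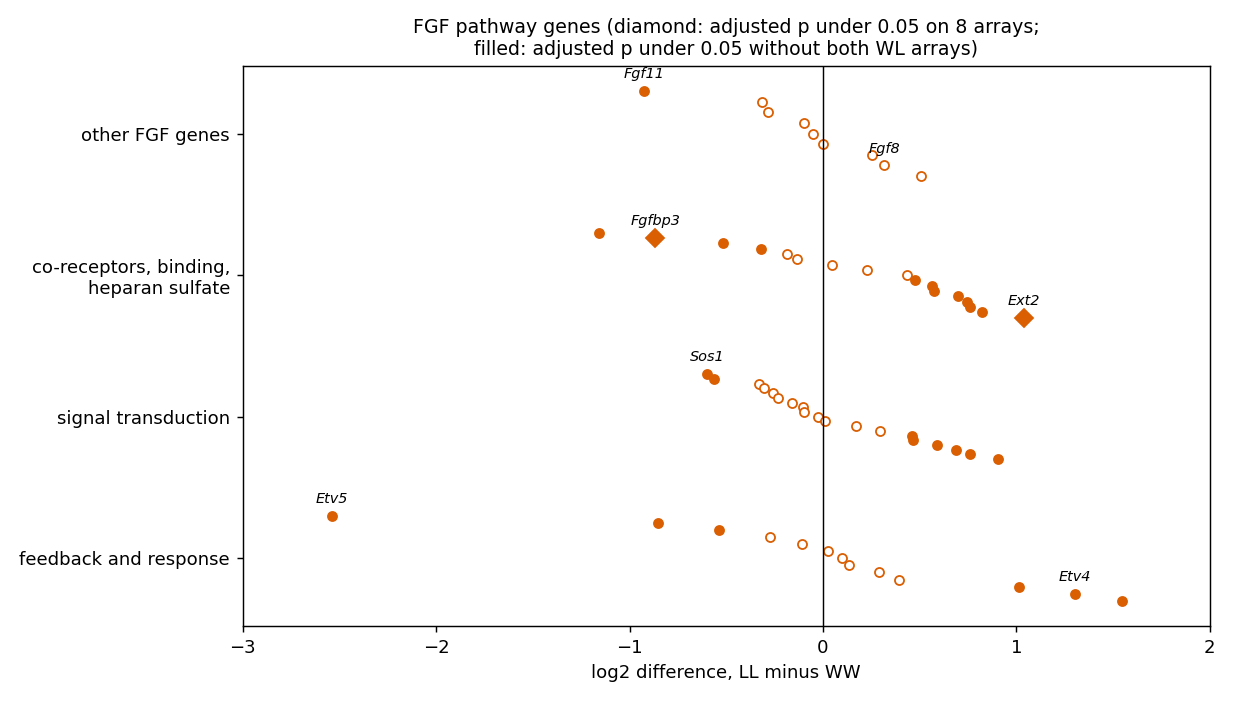
LL minus WW log2 difference (x axis) of each measured gene of the 4 FGF pathway lists (y axis, spread vertically in order of size), a diamond where the adjusted p was under 0.05 on 8 arrays and a filled symbol where it was without both WL arrays. The 2 diamonds are Ext2 at 1.04 and Fgfbp3 at -0.87, and Etv5 lies at -2.54.

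The members with the widest range over the 8 arrays were Fgfr4, Fgf2 and Fgf18, and the genes whose levels ran most like theirs were found by Pearson r over the 8 arrays among 14342 candidate genes. These values are a description: the arrays share 1 slide, and WL replicate 2 weighs heavily in each of them. Fgfr4 ran most like Tln2 (r = 0.995), Cox6b2 (0.992) and Lynx1 (0.992) and most opposite to Rcl1 (-0.996). Fgf2 ran most like Pgk1 (0.995), Naa15 (0.995) and Prpf38a (0.994) and most opposite to Exoc3 (-0.996). Among the genes nearest to Fgf18 were Pllp (0.988) and Rspo1 (0.98), and it ran most opposite to Rps9 (-0.967).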

How the data were processed

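Lung RNA was labelled with Cy3 for 8 Agilent arrays read in 1 colour. Per the file headers, the deposited intensity values were background-subtracted and detrended within each array by Agilent Feature Extraction 11.5.1.1, and not scaled across arrays. The authors' deposited table of the series is on a log2 scale and was within 0.01 of the log2 processed signal minus a constant per array for 99.95 to 99.98% of probes.

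From the array files, spots of a probe were averaged, taken to log2 and scaled to the array's 75th percentile. Probes were kept (39595) if 1 group or more had them well above background in both mice, and the brightest represented its gene (25830 genes). Gene and probe names and mm9 positions are the array's. A RefSeq table on GRCm38.p6 matched all 10 symbols.

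The test was limma 3.58.1, run in R 4.3.3, with 4 group means on 8 arrays with 4 residual degrees of freedom, adjusted by Benjamini-Hochberg over all genes and called at an adjusted p under 0.05. The code was tested on simulated data. Per the labels the arrays are separate mice, and their number limits the precision. Figures were drawn with Python 3.11.15.

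All 10 genes are named, with the pathway genes called in a comparison and the 2 per list with the smallest p in LL against WW, except that 1 pathway gene, 1 gene of similar level and 1 probe are not reported here. Likeness was sought among genes above background on all arrays with a RefSeq symbol. The genes and lists were chosen with earlier results of these data known. A pairing by replicate number was not seen over all genes: the correlation of replicate differences between groups was -0.10 to 0.19. The neutrophil markers were nonetheless lower in replicate 1 of every group. Alternatives were normexp with an offset of 50, quantile normalization, another percentile, other filters, probes averaged per gene, the deposited values, the replicate number as a block, an intensity trend with a robust prior, a fit to only the arrays compared, both WL arrays left out and each array left out.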

Additional observations from a re-analysis of the deposited data

How the results depend on the processing

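The count of called FGF genes was 0 in all 6 comparisons, and stayed 0 under normexp, quantile normalization, the other percentile, no or a stricter filter, averaging of each gene's probes, the deposited table, the trend and robust variance model and the replicate number as a block. The block, which the data did not bear out as a pairing, left 447 genes called in LL against WW over all genes, beside 808 without it, and 317 beside 723 in LL against LW. It ended the calls of Ext2 (adjusted p = 0.0537) and Fgfbp3 (0.0608) in LL against WW and of Fgfbp3 (0.0625) in LL against LW. With only the arrays of the groups compared, 2 FGF genes were called in LL against WW (Fgf2 and Fgf10, beside 24.2% of all genes) and 1 in LL against LW (Fgf2, beside 27.6%). Without both WL arrays the counts were 2 and 4. Leaving out 1 array at a time gave 0 to 2 in LL against WW, 0 to 4 in LL against LW, 0 to 6 in WL against WW, 0 to 0 in LW against WW, 0 to 5 in the recipient average and 0 to 1 in the interaction. The 6 came without WL replicate 1 (Fgf1, Fgf2, Fgf7, Fgfr1, Fgfr2 and Fgfr4, beside 37.7% of all genes), as did the 5 (the same without Fgf7, beside 48.4%). Without WL replicate 2, Fgf2 was called in the recipient average (beside 13.3%) and in the interaction (beside 8.55%). A lone WL mouse is then assumed to vary like the other groups. Of single-gene differences, Fgf18 in LL against LW turned from 0.05 to -0.0075 under quantile normalization and -0.0133 under the other percentile. When 1 array was left out Fgf18 ran from -0.33 to 0.73 in LL against WW and from -0.48 to 0.58 in LL against LW, and Fgf9 from 0.34 to 0.92 in LL against WW and from -0.16 to 0.42 in LL against LW. Fgf11 ran from -1.25 to -0.60 and Fgf8 from 0.16 to 0.47 in LL against WW. Over all genes, 600 were called in LL against WW under normexp, 910 under quantile normalization, 400 with no filter, 648 with the stricter filter, 6242 with only the arrays compared, 8285 without both WL arrays and 4 without LL replicate 1 or without WW replicate 1. No filter on dim probes ended the calls of Ext2 and Fgfbp3, normexp that of Ext2 (adjusted p = 0.173), and the other percentile that of Fgfbp3 in LL against LW (0.0504). The causes were not tested. Normexp lowered the differences of the dim probes of Fgf2 and Fgf9 to 0.55 and 0.16 in LL against WW. Of the 24 FGF probes, 21 were well above background on all 8 arrays.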
